A study of Mus musculus with 44 samples.

Results

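The T-lineage genes Cd3d, Cd3e, Cd3g, Lck, Zap70, Thy1, Tcf7, Bcl11b, Gata3 and Il18r1 were followed through a culture that was directed to the B lineage. They are the 10 rows of those symbols among the 23234 genes of the deposited expression table. All libraries came from induced leukocyte stem (iLS) cells, blood progenitors of C57BL/6J fetal liver that carry Id3 fused to ERT2, a receptor domain that 4-hydroxytamoxifen (4-OHT) activates. Per the labels, they were expanded on TSt-4 stromal feeder cells with 40 nM 4-OHT, IL-7 at 20 ng/mL, and SCF and Flt-3L each at 10 ng/mL. From 0 h, 4-OHT was left out and IL-7 was given at 5 ng/mL, again on TSt-4 cells. Poly(A) RNA of 44 libraries was sequenced at 16 time points, with 3 libraries at each of 14 (0, 0.5, 1, 2, 4, 6, 8, 10, 12, 24, 48, 72, 96 and 144 h) and a single one at 120 h and at 168 h. Every group shares the strain, the Id3-ERT2 fusion and the feeder cells. Nothing states whether the libraries of a time point came from separate cultures, so the p-values measure only the spread between libraries, which may be technical. The labels do not mention removal of the feeder cells.

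The T-cell receptor reaches the cell surface only with the CD3 chains, whose cytoplasmic tails are phosphorylated by the kinase Lck and then bind the kinase Zap70. Notch signals in the thymus induce Tcf7 and then Gata3 and Bcl11b, transcription factors that establish T-cell identity, with Bcl11b marking commitment. Thy1 is a surface glycoprotein of mouse T cells that other cells, fibroblasts among them, can also carry, and Il18r1 is the ligand-binding chain of the interleukin-18 receptor, found on T, natural killer and innate lymphoid cells. Id3 binds E proteins, the factors that recognise the E-box CANNTG, and keeps them from DNA, and E proteins are needed for B-cell development.

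Cd3g and Cd3d lie head to head on mouse chromosome 9 with RefSeq start sites 1355 bases apart, and Lck has an upstream and a downstream start site on chromosome 4. Their windows of 250 bases before the start are shown because neighbouring CD3 genes differed in level and because Lck was the member that rose again during the culture. Each is printed 5′ to 3′ on the gene's strand, from RefSeq promoters of GRCm38.p6, with every CANNTG in capitals. The windows are chr9:44980432-44980681 (Cd3g, minus strand), chr9:44981536-44981785 (Cd3d, plus strand), chr4:129573642-129573891 (Lck upstream start, minus strand) and chr4:129558373-129558622 (Lck downstream start, minus strand). The expression values were made on mm9, so these coordinates belong to the RefSeq table only.
Cd3g: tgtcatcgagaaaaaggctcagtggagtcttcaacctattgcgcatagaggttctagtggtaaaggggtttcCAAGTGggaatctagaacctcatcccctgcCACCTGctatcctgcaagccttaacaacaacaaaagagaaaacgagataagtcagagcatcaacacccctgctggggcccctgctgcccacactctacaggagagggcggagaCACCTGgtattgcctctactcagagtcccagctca
Cd3d: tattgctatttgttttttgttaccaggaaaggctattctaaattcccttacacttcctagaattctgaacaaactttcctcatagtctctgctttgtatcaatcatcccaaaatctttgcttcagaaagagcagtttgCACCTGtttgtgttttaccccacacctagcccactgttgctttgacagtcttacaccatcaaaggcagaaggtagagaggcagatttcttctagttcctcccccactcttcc
Lck upstream start: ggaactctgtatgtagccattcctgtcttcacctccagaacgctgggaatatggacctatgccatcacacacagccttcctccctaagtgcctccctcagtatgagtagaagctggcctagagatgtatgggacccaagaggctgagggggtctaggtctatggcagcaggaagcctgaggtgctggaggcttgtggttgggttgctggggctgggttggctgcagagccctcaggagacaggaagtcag
Lck downstream start: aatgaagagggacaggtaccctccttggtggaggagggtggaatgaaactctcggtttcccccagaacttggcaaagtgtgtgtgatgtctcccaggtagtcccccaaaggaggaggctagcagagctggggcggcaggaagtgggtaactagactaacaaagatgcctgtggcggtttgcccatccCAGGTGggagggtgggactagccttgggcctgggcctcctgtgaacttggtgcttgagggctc
The Cd3g window held 3 CANNTG, the Cd3d window 1, the upstream Lck window 0 and the downstream Lck window 1. RefSeq listed 15 starts for 9 of the 10 members (Thy1 was not matched), some of them overlapping. CANNTG was in 11 of the 15, against 66.2% of all 32851 listed windows of this length. The form CAGGTG, searched on both strands and contained in CANNTG, was in 6 of the 15, or 40.0%, against 17.2% of all windows. These letter matches are descriptions and not measured binding sites.

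The values are FPKM, fragments scaled to transcript length and to the library's total of mapped fragments, so each is a share of its library and sequencing depth is unknown. Summed FPKM per library ranged from 516025 to 701705, and relative depth estimated from the smallest values ranged 4.06-fold. Kit (20.5, 29.3 and 18.9 FPKM) and Flt3 (142, 151 and 141 FPKM), receptors of early progenitors, were present in the 0 h libraries. Blood and feeder RNA moved within the libraries: the summed FPKM of 18 general blood-cell genes, all above 0 at 0, 24 and 144 h, was 2453 ± 324 (SD, n = 3) at 0 h. It was 611 ± 229.6 after 24 h and 1919.6 ± 202 after 144 h. The summed FPKM of 25 stromal genes (collagens and other fibroblast products) was 1499 ± 931 at 0 h (range 753 to 2543). It was 9266 ± 847 after 24 h (8334 to 9988) and 2886 ± 809 after 144 h (2085 to 3702), with 23 of the 25 genes above 0 and Dcn and Lum at 0 in every library of each of these times. Library codes in the labels fall into 6 unbroken runs, and no run holds both 0 h and a time after 24 h. Late changes against 0 h therefore cannot be read within a run. A fit with runs as a term links them through a single run, which spans 8 to 168 h. That fit assumes that a run shifts a gene equally at all its times, which was not tested.

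**Figure D1:**
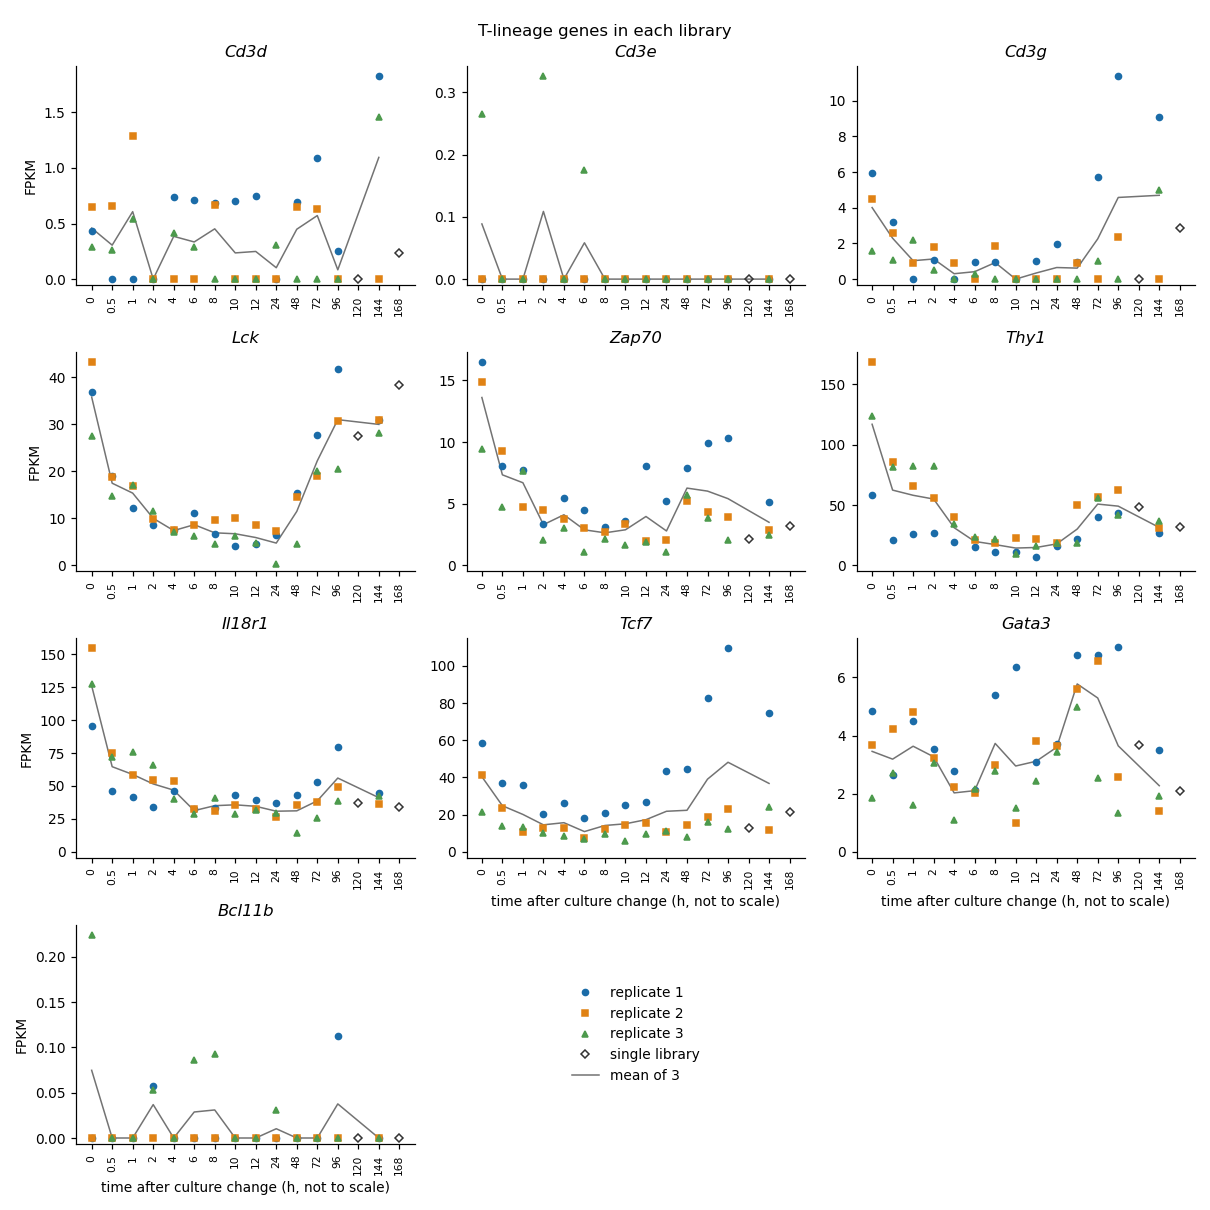
FPKM (y axis, a separate linear scale for each gene) of the 10 members against time after the culture change in hours (x axis, not to scale). Symbols are libraries, coloured by replicate number, open diamonds are the single libraries at 120 and 168 h, and lines join the means of 3. Lck falls and returns, Il18r1 falls and stays low, and Cd3e and Bcl11b are at 0 in most libraries.

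At 0 h the members ranged from high expression to almost none. Il18r1 had 126 ± 29.8 FPKM (SD, n = 3) and Thy1 117 ± 55.3, and 97.4% and 97.2% of all genes had lower means. Tcf7 had 40.4 ± 18.6, Lck 35.8 ± 7.93, Zap70 13.6 ± 3.70, Cd3g 4.01 ± 2.21 and Gata3 3.45 ± 1.51 FPKM. Cd3d had 0.459 ± 0.182, Cd3e 0.0886 ± 0.153 and Bcl11b 0.0748 ± 0.130 FPKM. Within this order, Il18r1 and Thy1, Thy1 and Tcf7 (by replicate 1 of each), Tcf7 and Lck, Cd3g and Gata3, and Cd3e and Bcl11b overlapped between libraries. The 0 h cultures carried high RNA for surface receptors and intermediate RNA for kinases, beside almost none for the CD3 epsilon chain and Bcl11b. At 144 h the order was Il18r1 (41.1 ± 4.43), Tcf7 (36.7 ± 33.2), Thy1 (31.4 ± 4.71), Lck (29.96 ± 1.63), Cd3g (4.70 ± 4.55), Zap70 (3.49 ± 1.45), Gata3 (2.27 ± 1.11) and Cd3d (1.10 ± 0.966), with Cd3e and Bcl11b listed at 0 in all 3 libraries. The place of Tcf7 rests on replicate 1, since its median was 23.97 FPKM, below those of Thy1 (30.6) and Lck (30.8). Neighbours in this order overlapped between libraries, except Lck and Cd3g.

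Changes were tested with limma on log2(FPKM + 1), a scale that understates the change of low genes, over the 13907 genes that reached 1 FPKM in 3 or more of the 42 replicated libraries. Called means an adjusted p under 0.05. Of the 10 members 8 entered the test, and Cd3e and Bcl11b did not. Cd3d entered through only 4 libraries at or above 1 FPKM. At 6 h, 4 of the 8 tested members were called lower than at 0 h, namely Lck, Zap70, Thy1 and Il18r1, while 19.2% of all tested genes were lower and 19% higher. At 24 h the same 4 were lower, against 22.5% of all tested genes lower and 20.8% higher. At 144 h 3 were lower (Zap70, Thy1 and Il18r1), against 3.24% of all tested genes, while 5.64% of them were higher. No tested member was called higher than at 0 h at any of the 13 later replicated times. In these bulk libraries fewer cells that express a gene and less of its RNA per cell cannot be told apart.

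Calls began at 0.5 h, when blood-cell genes were lower too. At 0.5 h 1 member was lower (7.29% of all tested genes were), and after 1 h 2 were (15.3% of all tested genes lower, 16.8% higher). Of the 18 blood-cell genes, 12 were lower at 0.5 h (median -0.93) and 16 after 1 h (median -1.22), while the medians of the 8 tested members were -0.75 and -1.04. With libraries scaled to those genes, as described later, no member was lower after 1 h or 6 h. That fit called 7065 genes at 1 h and 9599 at 6 h, of which 99.3% and 98.4% were higher. Few genes of any kind were thus called lower in it. Without that scaling the count was 3 members after 2 h (background 18.5% lower), 5 after 4 h (17%) and 4 after 8 h (19.2%). It was 5 both after 10 h (20.5%) and after 12 h (20.3%), and 3 after 48 h (16.4%). After 72 h 1 member was lower (8.23% of all tested genes lower, 17.2% higher), and after 96 h 2 were (2.49% lower). Il18r1 was lower at all 13 times, Lck at 9 (1 to 48 h), Zap70 at 9, Thy1 at 8 and Cd3g at 3 (4, 10 and 12 h). Tcf7, Gata3 and Cd3d were called at none of them. The F test over all later times called Lck (adjusted p = 1.40e-06), Il18r1 (4.71e-05), Thy1 (6.81e-05) and Zap70 (0.00615), 4 of 8 members, where 56% of all tested genes passed. The median change of the 8 members on the log2 scale was -1.88 for 6 h (-0.055 over all tested genes), -1.84 for 24 h (-0.058) and -0.42 for 144 h (0.034).

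**Figure D2:**
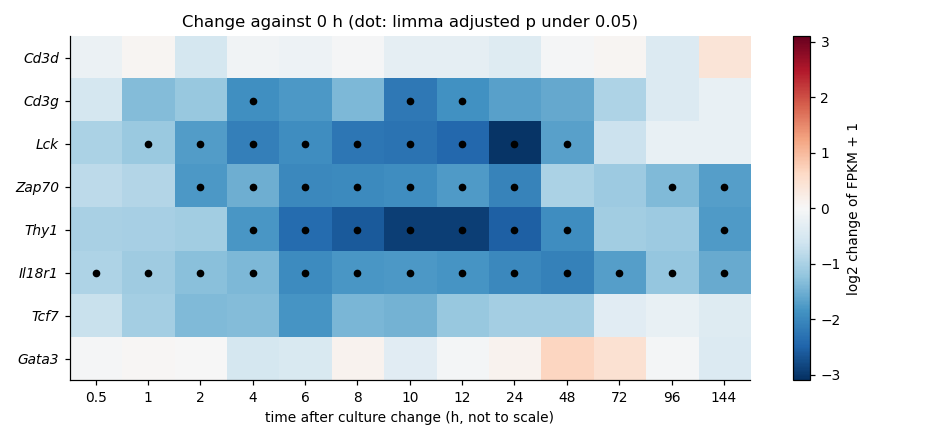
Log2 change of FPKM + 1 against 0 h (colour) for the 8 tested members (rows) at the 13 later replicated times (columns, hours, not to scale). Dots mark a limma adjusted p under 0.05, which Il18r1 reached at 13 times and Lck at 9, from 1 to 48 h.

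The CD3 chains were near the detection limit, and only Cd3g gave a clear signal at 0 h. Cd3g encodes the gamma chain, which pairs with epsilon in the receptor complex. Its FPKM was 5.95, 4.49 and 1.60 in replicates 1, 2 and 3 of 0 h, and 1.95, 0 and 0 in those of 24 h. Late libraries had 11.4, 2.35 and 0 (96 h) and 9.09, 0 and 5.01 (144 h). It was at 0 in all 3 libraries at 10 h and in 17 of the 44 libraries, and its late values lay far apart within a time point. Values in the 27 libraries above 0 were whole multiples (within 0.2) of a step that was scaled to each library's depth and fitted to these same values. Read as fragments, the 0 h values came to about 10, 5 and 4, and 10 libraries held a single step. The change at 6 h did not pass the test (-1.77 ± 0.74, adjusted p = 0.0566) unless runs of library codes were a term in the fit (adjusted p = 0.0180), while the 10 h libraries, all listed at 0, were called lower (adjusted p = 0.0156).

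Cd3d, the delta chain, was listed at 0 in 20 of 44 libraries. Its highest value was 1.83 FPKM in replicate 1 at 144 h, with 1.83, 0 and 1.46 FPKM across that time and 0.433, 0.653 and 0.291 at 0 h, so the groups overlapped. Cd3e, the epsilon chain without which the complex does not assemble, was above 0 in 3 of 44 libraries, all of replicate 3. These were 0.266 FPKM at 0 h, 0.326 at 2 h and 0.175 at 6 h, in libraries with relative depths of 1.48, 1.21 and 2.25. Value times depth was thus nearly equal in these 3. A step fitted to the same values cannot show how many fragments each held. The 0 h means of these neighbouring genes, of which the Cd3g and Cd3d windows are printed above, thus ranged from 4.01 FPKM (Cd3g) to 0.0886 FPKM (Cd3e).

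Of the kinases, Lck fell and rose again, while the change of Zap70 from 24 to 144 h did not pass the test. Lck had 36.8, 43.2 and 27.4 FPKM in the 3 libraries of 0 h and 19.0, 18.7 and 14.7 in those of 0.5 h. It had 11.1, 8.52 and 6.33 by 6 h and 6.56, 7.30 and 0.370 by 24 h, the lowest time. From there it went through 15.3, 14.5 and 4.57 (48 h) and 27.7, 18.9 and 19.99 (72 h) to 41.8, 30.7 and 20.4 (96 h) and 30.8, 31.0 and 28.1 (144 h). Every library of 24 h lay below every one of 0 h, and those of 144 h overlapped the 0 h range. The single libraries of 120 and 168 h had 27.4 and 38.4 FPKM. The log2 change against 0 h was -1.94 ± 0.43, adjusted p = 6.25e-04 for 6 h. It was -3.03 ± 0.43, adjusted p = 1.22e-06 for 24 h. Later changes did not pass the test (-0.66 ± 0.43, adjusted p = 0.289 for 72 h, and -0.23 ± 0.43, adjusted p = 0.839 for 144 h).

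From 24 to 144 h Lck rose by 2.81 ± 0.43, adjusted p = 1.19e-05, the only member called in that comparison, in which 17.4% of all tested genes were higher and 15.6% lower. It was already higher at 72 h than at 24 h (2.38 ± 0.43, adjusted p = 9.53e-04, with 7.6% of all tested genes higher). Replicate 3 of 24 h stood apart at 0.370 FPKM. Without it the 24 h change was -2.19 (limma adjusted p = 1.55e-05) and the rise to 144 h was 1.96 (adjusted p = 0.000188). Lck was also called at 1 h (-1.16 ± 0.43, adjusted p = 0.0396), a call that was lost without any 1 of 5 libraries, all those compared except 0 h replicate 3 (adjusted p from 0.0538 to 0.133). Within the runs of library codes that hold both times, Lck changed by -1.95, -1.64 and -2.21 to 6 h and by -2.32 and -2.41 to 24 h, so each run gave a fall. The single run with both 24 h and 144 h gave 4.41, and it contains the low 24 h library.

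Zap70 had 16.5, 14.9 and 9.44 FPKM in the libraries of 0 h, 4.49, 3.07 and 1.09 by 6 h and 5.25, 2.07 and 1.05 by 24 h. It then had 7.92, 5.19 and 5.69 (48 h), 10.3, 3.89 and 2.04 (96 h) and 5.16, 2.83 and 2.49 (144 h). All libraries of 6, 24 and 144 h lay below all those of 0 h, while replicate 1 of 96 h was above the lowest 0 h library. The log2 change against 0 h was -1.99 ± 0.45, adjusted p = 7.43e-04 for 6 h. It was -2.07 ± 0.45, adjusted p = 4.01e-04 for 24 h. Zap70 was still lower after 144 h (-1.71 ± 0.45, adjusted p = 0.0137), a call lost without 0 h replicate 1 or 2 or 144 h replicate 2 or 3 (adjusted p from 0.0504 to 0.0784). From 24 to 144 h the change was 0.35 ± 0.45, adjusted p = 0.582. Within runs Zap70 changed by -2.32, -1.67 and -1.96 to 6 h and by -1.49 and -2.37 to 24 h, a fall in each.

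The ratio of Zap70 to Lck FPKM within a library was 0.449, 0.345 and 0.345 in replicates 1, 2 and 3 of 0 h, and 0.167, 0.0915 and 0.0888 in those of 144 h. These sets did not overlap, although an exact permutation test of 3 against 3 cannot go below 0.1. The ratio does not move with the scaling of a library. Thy1 to Lck (1.59, 3.90 and 4.51 at 0 h, 0.880, 0.989 and 1.30 at 144 h) did not overlap either. Nor did Il18r1 to Lck (2.60, 3.59 and 4.66, then 1.44, 1.17 and 1.52), while Tcf7 to Lck overlapped. The non-overlap was thus not particular to the kinases, and other genes were not examined for it.

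The surface proteins were the most abundant members at 0 h and were below that level later. Thy1 had 58.5, 168 and 124 FPKM in the libraries of 0 h and 20.7, 85.3 and 81.1 in those of 0.5 h. It had 15.3, 20.8 and 23.5 by 6 h and 16.2, 18.7 and 18.5 by 24 h. After that it had 39.9, 56.4 and 56.1 (72 h), 43.2, 62.4 and 41.6 (96 h) and 27.1, 30.6 and 36.5 (144 h), with 48.6 and 31.8 in the single libraries of 120 and 168 h. The libraries of 6, 24 and 144 h were all below those of 0 h. Replicate 1 was the lowest of the 3 at 11 of 14 time points and the highest at none. The log2 change against 0 h was -2.39 ± 0.49, adjusted p = 2.45e-04 for 6 h. It was -2.52 ± 0.49, adjusted p = 1.05e-04 for 24 h. The change did not pass the test for 72 h (-1.08 ± 0.49, adjusted p = 0.111) and was called again for 144 h (-1.75 ± 0.49, adjusted p = 0.0222). That last call was lost without 0 h replicate 2 or 3 or 144 h replicate 1 or 2 (adjusted p from 0.0567 to 0.141). From 24 to 144 h the change was 0.78 ± 0.49, adjusted p = 0.236. Within runs Thy1 changed by -2.35, -1.87 and -2.96 to 6 h and by -1.79 and -3.103 to 24 h. Stromal genes rose in the same libraries, and any share of Thy1 RNA from feeder cells was not tested.

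Il18r1 was the member called lower at the most times. It had 95.6, 155 and 128 FPKM in the libraries of 0 h and 46.4, 75.4 and 72.1 by 0.5 h. It had 32.8, 32.3 and 28.5 by 6 h and 36.9, 26.2 and 29.3 by 24 h. Later libraries had 52.8, 37.8 and 25.4 (72 h), 79.7, 49.5 and 38.8 (96 h) and 44.5, 36.1 and 42.7 (144 h), with 37.0 and 34.2 in the single ones of 120 and 168 h. Every 0 h library lay above every later library, the closest being replicate 1 of 96 h. The log2 change against 0 h was -1.10 ± 0.31, adjusted p = 0.00597 for 1 h, a call lost without 1 h replicate 1 (adjusted p = 0.0518). It was -1.96 ± 0.31, adjusted p = 5.88e-06 for 6 h and -1.99 ± 0.31, adjusted p = 3.73e-06 for 24 h. It remained -1.71 ± 0.31, adjusted p = 7.79e-05 for 72 h and -1.57 ± 0.31, adjusted p = 9.01e-04 for 144 h. From 24 to 144 h Il18r1 changed by 0.41 ± 0.31, adjusted p = 0.316. Within runs it changed by -2.12, -1.52 and -2.23 to 6 h and by -1.35 and -2.52 to 24 h, lower in each.

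Il18rap, the accessory chain of the same receptor and not a member, had 57.3 ± 9.37 FPKM at 0 h and 21.9 ± 5.68 at 144 h. Its log2 change was -1.68 ± 0.28, adjusted p = 1.27e-05 at 24 h and -1.37 ± 0.28, adjusted p = 0.00166 at 144 h, so RNA of both receptor chains was lower at both times.

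With time points alone in the fit and no further scaling, no transcription factor was called against 0 h. Tcf7, which encodes TCF-1, had 58.6, 41.1 and 21.4 FPKM in replicates 1, 2 and 3 of 0 h, 18.4, 7.51 and 6.62 by 6 h and 43.5, 10.5 and 11.3 by 24 h. Later it had 82.5, 18.6 and 16.0 (72 h), 109.6, 22.9 and 11.97 (96 h) and 74.5, 11.8 and 23.97 (144 h), with 12.7 and 21.4 in the single libraries of 120 and 168 h. Replicate 1 was the highest of the 3 at all 14 replicated time points, an order that 63 of the 13907 tested genes shared, and replicate 3 was the lowest at 11. The gap was widest late, with replicate 1 of 96 h several-fold above the other 2. The 6 h change was -1.83 ± 0.75, adjusted p = 0.0539, with -1.56, -1.62 and -2.31 within the 3 runs, so every run gave a lower value while the pooled test did not pass. With the runs as a term in the fit, Tcf7 was called lower at 6 h (adjusted p = 4.23e-06).

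Gata3 stayed between 0.985 and 7.04 FPKM in all 44 libraries. It had 4.85, 3.66 and 1.85 FPKM in the libraries of 0 h, 3.71, 3.63 and 3.45 by 24 h, 6.76, 5.59 and 4.98 by 48 h and 3.51, 1.39 and 1.91 by 144 h. The libraries at 0 and 24 h overlapped, and the change was 0.11 ± 0.41, adjusted p = 0.866, with an F test over all times of adjusted p = 0.283. Bcl11b was above 0 in 7 of 44 libraries and never exceeded 0.224 FPKM, reached in replicate 3 at 0 h. Of the 3 transcription factors, Tcf7 was thus abundant and uneven between replicates, Gata3 was low at all times, and Bcl11b was close to 0 throughout.

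Since the blood-cell sum moved with the members, each value was also set against it. Per 1000 FPKM of the 18 blood-cell genes, Lck had 14.7, 15.7 and 13.01 FPKM in the libraries of 0 h, 8.12, 10.96 and 1.03 by 24 h and 14.4, 16.4 and 16.2 by 144 h. Zap70 went from 6.59, 5.42 and 4.49 (0 h) to 2.42, 1.497 and 1.44 (144 h). Thy1 went from 23.4, 61.4 and 58.7 to 12.7, 16.2 and 21.0 and Il18r1 from 38.2, 56.5 and 60.7 to 20.9, 19.1 and 24.6 over the same interval. On this scale all 24 h libraries of Lck, and all 144 h libraries of Zap70, Thy1 and Il18r1, were below those of 0 h. Gata3 had 1.94, 1.33 and 0.878 in the libraries of 0 h, 4.597, 5.45 and 9.62 by 24 h and 1.65, 0.737 and 1.10 by 144 h, so its 24 h libraries lay above both ends.

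When the whole table was scaled to the geometric mean of the blood-cell genes and refitted with limma, the median of all tested genes moved up on the log2 scale. The shift was 0.849 for 1 h, 1.155 for 6 h, 1.68 for 24 h, 0.785 for 72 h and 0.284 for 144 h. Among called genes, the higher ones went from 52.4% to 99.3% (1 h), 49.7% to 98.4% (6 h), 48.0% to 98.6% (24 h), 67.6% to 99.1% (72 h) and 63.5% to 87.1% (144 h). In the comparison of 144 with 24 h the median moved by -1.37 and the higher share went from 52.8% to 2.16%. On that scale none of the 8 members was called lower at 1 h or 6 h. The fit called 7065 of the 13907 tested genes at 1 h and 9599 at 6 h. Nearly all of these were higher, so few genes of any kind were called lower, and the absence of members among them is not particular to the members. After 6 h Lck was at -0.52 ± 0.38, adjusted p = 0.222 and Il18r1 at -0.48 ± 0.24, adjusted p = 0.0686. At 24 h Lck was still lower (-1.36 ± 0.38, adjusted p = 0.00151), Il18r1 was at 0.052 ± 0.24, adjusted p = 0.853, and Gata3 was called higher (1.66 ± 0.38, adjusted p = 1.79e-04). At 72 h Il18r1 was lower (-0.71 ± 0.24, adjusted p = 0.0120) and Gata3 higher (1.13 ± 0.38, adjusted p = 0.0129). The scaled median of all tested genes was 1.62 at 24 h and 0.82 at 72 h, with 11088 and 7794 genes called. The Gata3 calls are therefore not particular to it, and its 24 h change was close to that median. At 144 h Il18r1 was lower (-1.16 ± 0.24, adjusted p = 0.00246), and Zap70 (-1.22 ± 0.39, adjusted p = 0.0725) and Thy1 (-1.33 ± 0.52, adjusted p = 0.148) no longer passed. Lck against 24 h still rose (1.52 ± 0.38, adjusted p = 6.07e-04), while Il18r1 and Gata3 were called lower in that comparison. There the scaled median of all tested genes was -1.29, and 10589 genes were called, nearly all of them lower. With the mean of the stromal genes as a covariate, no member was called lower at 1, 6, 24, 72 or 144 h. Summed stromal FPKM was 753 to 2543 at 0 h and 8334 to 9988 at 24 h, so the covariate largely followed time. That fit therefore cannot separate the covariate from the time change, and no conclusion is drawn from its lost calls.

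**Figure D3:**
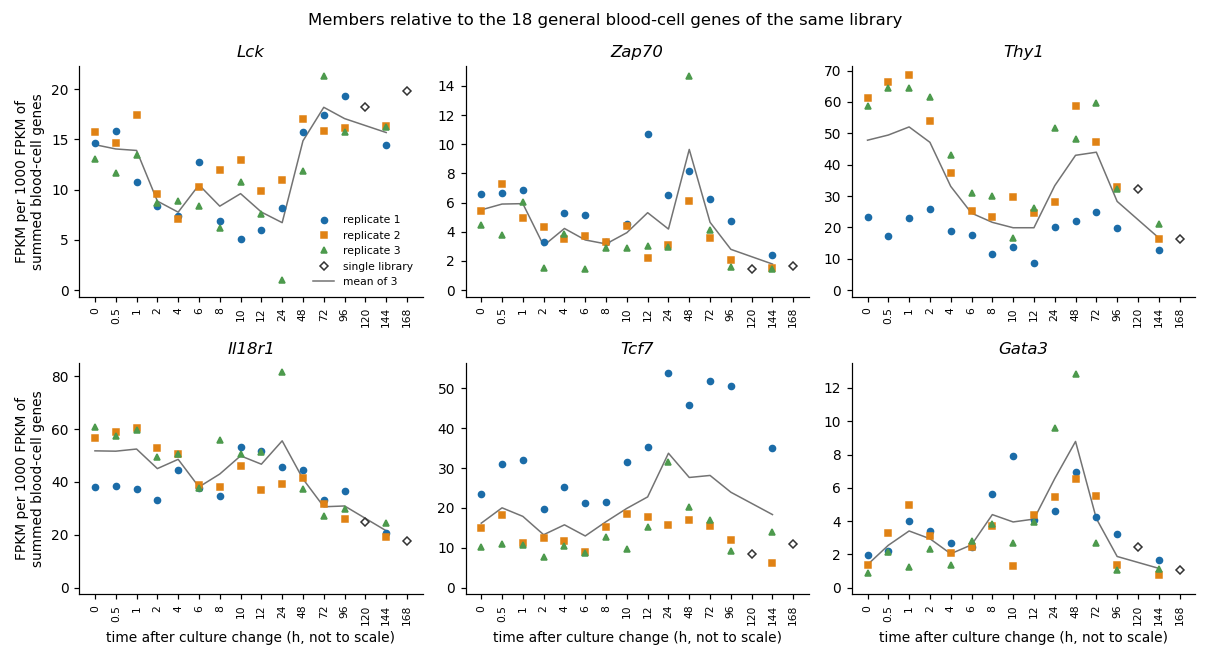
FPKM of 6 members per 1000 FPKM of the 18 summed blood-cell genes of the same library (y axis, linear, separate for each gene) against time in hours (x axis, not to scale). Symbols are libraries by replicate number, open diamonds the single libraries, and lines join the means of 3. Gata3 peaks at intermediate times, and Il18r1 at 144 h (19.1 to 24.6) lies below all 0 h libraries (38.2 to 60.7). With the whole table scaled to these blood-cell genes, the median log2 change of all tested genes was 1.62 at 24 h.

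Other T-cell genes also fell by 24 h, and some rose after it. Over lists of receptor signalling genes, T-cell surface genes, and T-lineage regulators with Notch genes (46 genes, 38 tested), 22 were lower and 3 higher after 24 h than at 0 h (22.5% of all tested genes lower, 20.8% higher). After 144 h 5 were lower and 4 higher (3.24% and 5.64% of all tested genes). From 24 to 144 h 15 rose and 1 fell (17.4% and 15.6% of all tested genes). Blood-cell genes moved in the same comparisons: all 18 were lower after 24 h (median -2.16), and all 18 were higher at 144 h than at 24 h (median 1.57). Of the receptor signalling genes 8 of 14 tested were lower and 1 higher at 24 h (median -1.16), and 2 lower and 1 higher at 144 h (median -0.19). Trat1, an adaptor of the receptor, had 4.93 ± 1.08 FPKM at 0 h and was listed at 0 in all 3 libraries of 24 h (adjusted p = 0.00382). It was often near the detection limit, at 0 in 12 of the 44 libraries, and had 13.1, 0 and 3.42 FPKM at 144 h. The costimulatory receptor Cd28 changed by -2.08 at 24 h and -1.78 at 144 h, and was lower at both. The phospholipase gene Plcg1 was higher at both times, by 0.66 and 1.31. Several defining genes were close to absent: Cd247, the zeta chain, was at 0 in 31 of 44 libraries, Themis in 42, Prkcq in 41 and Cd4 in 25.

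Of the T-cell surface genes 7 of 10 tested were lower and 1 higher at 24 h (median -1.51), and 2 were lower at 144 h (median -0.50). Ccr9, a chemokine receptor of thymus-homing cells, changed by -3.51 at 24 h and -3.85 at 144 h. Its 0 h values were 76.6, 13.6 and 11.5 FPKM, so replicate 1 was highest there as for Tcf7. The TNF-receptor family member Cd27 was also lower at both times (-2.13 and -1.83), and the adhesion receptor Cd44 was higher at 24 h (1.14).

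Of the regulators and Notch genes 7 of 14 tested were lower and 1 higher at 24 h (median -0.94), and 1 was lower and 3 higher at 144 h (median -0.13). The chromatin organiser Satb1 was lower at both times (-2.62 and -1.62). At 144 h Lef1, the close relative of Tcf7, was higher by 2.27 ± 0.50, adjusted p = 0.00335, although replicate 1 stood lower than the other 2 (4.52, 19.6 and 13.1 FPKM). The Notch target Hes1 and the ETS factor Ets1 were also higher at 144 h, by 1.63 and 1.58. Of the 13 tested natural killer and innate lymphoid genes, 4 were lower at 24 h and 1, Il18rap, at 144 h.

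Most B-lineage genes ended above their 0 h level. Of 20 tested, 14 were lower and 2 higher at 24 h (median -1.48), and 14 were higher and none lower at 144 h (median 2.60). Cd79a, a signalling chain of the B-cell antigen receptor, was higher by 3.60 at 144 h. The B-lineage factor Ebf1 was higher by 2.12. Pax5, the factor of B-cell commitment, had 13.7 ± 3.62 FPKM at 0 h and 33.9 ± 15.9 at 144 h, a change of 1.19 ± 0.44, adjusted p = 0.0872. Against 0 h, 2 of the 18 blood-cell genes were lower at 144 h (median -0.47). All 23 tested stromal genes were higher at 24 h (median 2.61) and 10 at 144 h (median 0.94). Of the myeloid and mast cell genes 10 of 15 were tested, of which 4 were lower and 1 higher at 24 h, and 2 lower at 144 h. The part of these shifts in the T-lineage changes was not tested beyond the scaled fit above, since the covariate fit could not separate stromal genes from time.

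**Figure D4:**
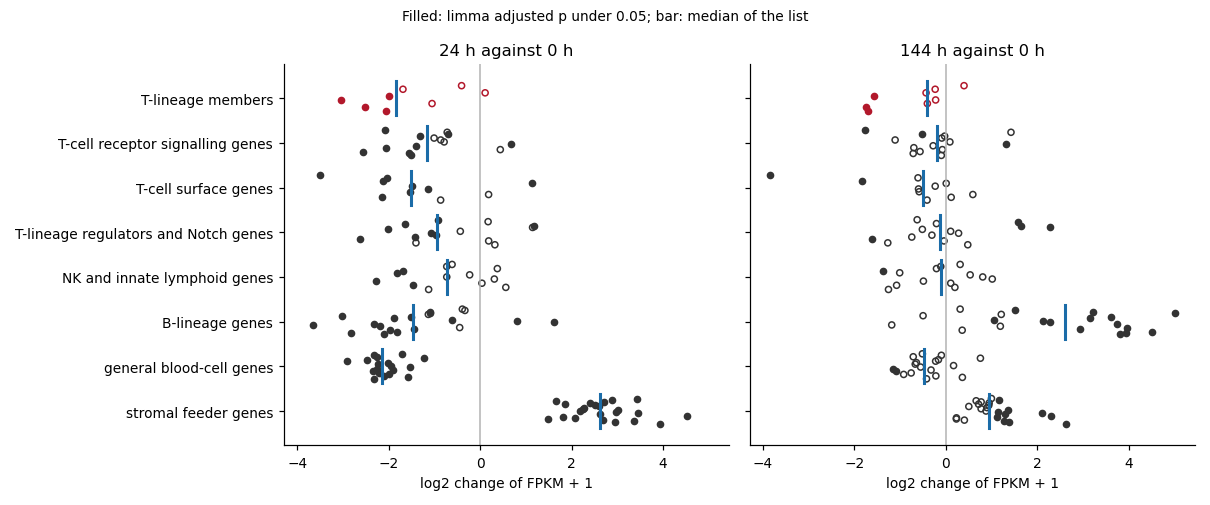
Log2 change of FPKM + 1 (x axis) of each tested gene in the 10 members and 7 lists (rows), at 24 h (left) and 144 h (right) against 0 h. Circles are genes, filled where the limma adjusted p was under 0.05, and the bar is the list's median, -1.84 and -0.42 for the members and -1.48 and 2.60 for the B-lineage genes.

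Over the 14 time-point means of log2(FPKM + 1), the members did not share 1 course. Pearson's r, given as a description over points that share libraries, was 0.895 for Cd3g with Lck, 0.834 for Thy1 with Il18r1, 0.827 for Lck with Tcf7, 0.826 for Zap70 with Thy1 and -0.12 for Gata3 with Il18r1. Outside the members, the 3 tested genes most like Lck were Arpp21 (0.985), Ptprcap (0.980) and Tmprss3 (0.980). Arpp21 had mean FPKM of 9.09 at 0 h, 0.344 at 24 h and 7.10 at 144 h. Those most like Il18r1 were Med12l (0.975), Fnbp1 (0.960) and Adam11 (0.954), and those most like Thy1 were Igj (0.984), Tnni1 (0.967) and Pik3r1 (0.961). Among those close to Cd3g were Syk (0.970) and Kif21b (0.960), and the closest to Zap70 was Slc22a3 (0.919). Tcf7 was nearest to Srrm2 (0.969), and Gata3 and Cd3d reached only 0.868 (Nucb1) and 0.901 (Zkscan6).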

How the data were processed

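The authors deposited 1 FPKM value per gene and library for 23234 genes, which they call corrected without saying how. Tools listed in the submitters' processing notes are Cufflinks 2.1.1 and TopHat2 2.1.0, with the mm9 build. FPKM values are not counts, so count models were not used and no counting interval is given. Here, limma 3.58.1 in R 4.3.3 was fitted to log2(FPKM + 1) with 1 mean per time point over 42 libraries, eBayes with a mean-variance trend, and Benjamini-Hochberg adjustment over the 13907 tested genes. The single libraries at 120 and 168 h were not fitted. Errors are SD for FPKM and SE for log2 changes. On simulated data with this spread, 46 of 100 genes changed 2-fold and 91 of 100 changed 4-fold were called at 6 h against 0 h. There were 5 false calls, and at 144 h these counts were 59, 92 and 13. The folds are of FPKM + 1. Simulated libraries varied independently and far fewer genes changed than in the data, so these rates need not hold for the data. Alternatives were another pseudocount, no filter, no trend, other scalings, a stromal covariate, library-code runs, a replicate block and left-out libraries. All 10 members are named. Named list genes are up to 3 called genes with the largest change per list and comparison, plus Cd79a, Ebf1, Pax5 and Il18rap, and Kit, Flt3, Cd44, Ets1 and list genes near 0 were named after their values were seen. For each tested member up to 3 genes with the highest r are named. Some genes that these rules would name are not reported here. Members and lists were chosen with earlier results of these data known.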

Additional observations from a re-analysis of the deposited data

How the results depend on the processing

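Blood-cell scaling and the stromal covariate changed the most calls. The count of members lower went from 2 to 0 (1 h), 4 to 0 (6 h), 4 to 1 (24 h) and 3 to 1 (144 h) under blood-cell scaling, which called 1 member higher at 24 h, 1 higher at 72 h and 2 lower at 144 h against 24 h. Under that scaling nearly all called genes were higher at 1, 6, 24 and 72 h, and nearly all were lower at 144 h against 24 h. These moves are therefore not particular to the members. With the stromal covariate, which largely followed time as given above, 0 were lower at 1, 6, 24, 72 and 144 h. At 1 h, 1 was lower with no filter and 1 with a pseudocount of 0.1. At 72 h, 2 were lower instead of 1 with median-ratio scaling and 2 with quantile normalization. With runs of library codes as a term 5 were lower at 1 h. Leaving out libraries or a replicate number gave 2 to 4 members in the F test, 1 to 3 higher at 144 h against 24 h, and 0 to 2 lower (1 h), 1 to 3 (72 h) and 0 to 3 (144 h). The cause of these moves was not tested. Apart from blood-cell scaling, the share of all tested genes called in these other fits was not computed. Their member counts therefore have no background to be set against.

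Direction changed in these cases. Under blood-cell scaling Thy1 was at 0.073 and Zap70 at 0.082 at 1 h, Il18r1 at 0.052 at 24 h, and Lck at 0.31 at 72 h and 0.16 at 144 h. Against 24 h at 144 h, Il18r1 was at -1.21, Thy1 at -0.83 and Zap70 at -0.83. With the stromal covariate Zap70 was at 0.25 at 1 h, Cd3g at 0.54 and Tcf7 at 0.84 at 6 h, and Lck at 0.24 at 72 h and 0.19 at 144 h. Against 24 h at 144 h, Il18r1 was at -0.20 and Zap70 at -0.39. Lck at 144 h was at 0.20 with the runs as a term. Gata3 at 24 h ran from -0.19 (without 0 h replicate 3; -0.16 without replicate 3) to 0.33 over the fits with a library left out, and Zap70 from 24 to 144 h from -0.010 (without 24 h replicate 3) to 0.79. In the other values of single members, 47 lost the call, 23 gained one and 433 counted as unchanged. In tested fits, unchanged means the same direction and side of the threshold. Within-run values have no test, and counted as unchanged if they differed by no more than the larger SD of the compared times. By that rule 8 within-run values moved. Gata3 at 24 h counted as unchanged, although it was -0.31 and -0.011 within runs 2 and 6 of library codes, opposite to the main fit.

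Libraries of the same replicate number were weakly alike, with correlations of same-numbered deviations from -0.06 to 0.14. In no comparison were all 3 above 0.1, yet in 5 of 6 every library correlated best with its own number. The main fit had no replicate term, so any such likeness was left in its spread. With the replicate block 5 members were lower at 1 h and 3 at 72 h, while 6 were lower for both 6 h and 24 h, with Cd3g (adjusted p = 0.0327) and Tcf7 (adjusted p = 6.43e-05) added at 6 h. Calls among all tested genes were not counted in that fit, so a general rise in calls cannot be told apart from a rise among members. Depth is unknown, and it limits Cd3d, Cd3e, Cd3g and Bcl11b most.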
